A study of Medicago truncatula with 12 samples.

Results

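*MtSWEET16* (Medtr2g436310, listed in the expression files as MTR_2g436310) was followed through 12 RNA-seq libraries of *M. truncatula* seedlings. It is 1 of 54073 genes listed in the files, and 1 of the 25 *MtSWEET* genes, of which it is the only member of clade IV. Its row was taken by its identifier, which places it on chromosome 2. All seedlings were wild type, of the reference genotype Jemalong A17, and 4 weeks old. They were kept in cold, on dry paper (drought) or in a nutrient solution with sodium chloride (salt). Libraries were made at 0, 2, 6 and 12 h of each stress, with 1 library for each of the 12 conditions, so the differences between conditions have no replicate check. None of the 12 libraries came from unstressed seedlings at 2, 6 or 12 h, so stress and elapsed time cannot be told apart.

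SWEET proteins are sugar uniporters, which let sugars pass membranes down their gradient without an energy supply. In plants they take part in moving sucrose into the phloem, in nectar release and in feeding pollen and seeds. Clade IV members of *Arabidopsis*, AtSWEET16 and AtSWEET17, sit in the tonoplast, the membrane of the vacuole, and move fructose between the vacuolar store and the cytosol. In the study's yeast assays, MtSWEET16 itself let mannose and sucrose be taken up, but not fructose.

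The transcript is identified below by the oligonucleotides that the study designed for it, written 5′ to 3′. The qRT-PCR pair is shown because it marks the transcript that was measured one gene at a time, and the yeast pair because it frames the coding sequence. In the yeast pair, capitals mark the start codon in the forward primer and the reverse complement of the stop codon in the reverse primer. Both follow a cloning site of 6 bases.
MtSWEET16 qRT-PCR forward: ggctcacctcttgctgtcat
MtSWEET16 qRT-PCR reverse: tataacaaccaaacgccgcc
MtSWEET16 yeast assay forward: actagtATGgcagatccaagtttc
MtSWEET16 yeast assay reverse: gtcgacCTAgataggtaagttttc
The qRT-PCR primers had 20 bases each, with a GC content of 55% (forward) and 50% (reverse). The FPKM values below (fragments scaled by transcript length and by the mapped fragments of the library) are given per gene and not for the stretch between these primers.

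*MtSWEET16* was expressed in every library, and its level moved 16.3-fold between the highest and the lowest of them. In cold its FPKM was 15.7, 17.4, 7.45 and 5.29 at 0, 2, 6 and 12 h. In drought it was 16.3, 9.73, 1.79 and 3.03 at the same times. In salt it was 11.8, 29.2, 8.82 and 2.49. The highest level was thus that of 2 h of salt and the lowest that of 6 h of drought, and the 3 libraries of 12 h were all below the 3 libraries of 0 h. Because these are bulk seedlings, fewer cells with the transcript and less of it per cell cannot be told apart.

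**Figure D1:**
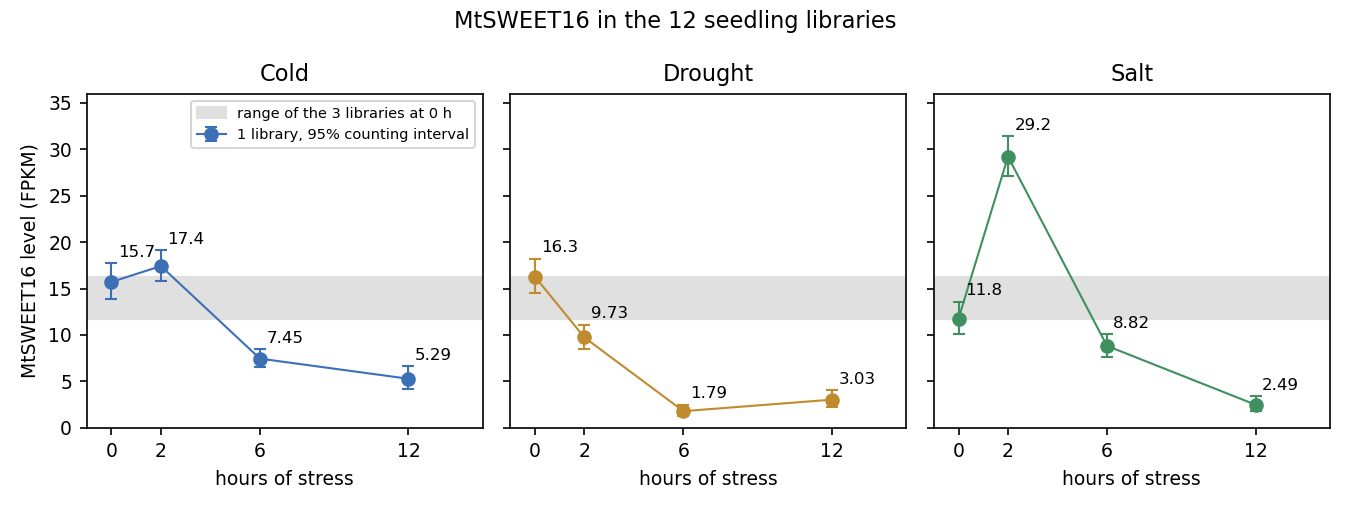
FPKM of *MtSWEET16* (vertical axis) against hours of stress (horizontal axis) in cold, drought and salt. Each point is 1 library with its exact 95% Poisson interval from the fragments, which covers counting error only, and the grey band is the range of the 3 libraries at 0 h, 11.8 to 16.3 FPKM. Salt at 2 h stands above the band at 29.2 FPKM, and all libraries of 12 h lie below it.

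These levels rested on 2740 fragments in all, recovered from the steps of the FPKM values. The salt library of 2 h held the most, 730, and the drought library of 6 h the fewest, 34. The exact 95% Poisson interval was 27.1 to 31.4 FPKM for the first and 1.24 to 2.51 FPKM for the second. These intervals cover counting error only. Over all genes, the fragments recovered in this way numbered 12103751 to 25205150 for each library (median 16366546), and the deepest library was 2.07 times as deep as the shallowest.

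No condition was repeated, and the spread could be judged only from the 3 libraries of 0 h. Their *MtSWEET16* levels averaged 14.6 ± 2.46 FPKM (SD, n = 3), and the highest was 1.38 times the lowest. The salt library was the low one. It was lower than the drought library at 0 h by a log2 of -0.47 (95% Clopper-Pearson interval -0.74 to -0.20) and lower than the cold library by -0.42 (-0.70 to -0.14), so the difference was larger than counting error, although neither passed the 2-fold rule described below, which 6.05% and 6.3% of genes passed in either direction. Drought and cold differed by 0.05 (-0.19 to 0.29), within counting error, and 2.34% of genes passed the rule. The salt library was the lowest of the 3 for 36.8% of genes. Of 21942 genes with a mean of at least 1 FPKM at 0 h, 21.5% had as wide a range between the 3 libraries. Any change of *MtSWEET16* under about 0.47 on the log2 scale was therefore no larger than the range of these 3 libraries. With 1 library for each stress, this range is only a rough guide to the spread between seedlings, above all at low levels that rest on few fragments.

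With the 12 libraries put in order of level, most neighbours could not be separated. From the top, salt at 2 h (29.2 FPKM) exceeded its neighbour, cold at 2 h (17.4 FPKM), by a log2 of 0.75 (95% interval 0.57 to 0.92), more than the range at 0 h. The 6 libraries from cold at 2 h down to salt at 6 h followed in small steps. Of these steps, that from cold to salt at 0 h passed counting error but not the range at 0 h, and the other 4 passed neither. Salt and cold at 6 h (8.82 and 7.45 FPKM) also differed by less than both. Cold at 6 h exceeded cold at 12 h by 0.50 (0.11 to 0.89), and cold at 12 h exceeded drought at 12 h by 0.80 (0.24 to 1.37). At the bottom, the intervals of the ratios of drought to salt at 12 h and of salt at 12 h to drought at 6 h held no change.

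In salt, *MtSWEET16* rose early and then fell below its starting level. A gene was called when its FPKM was at least 2 or at most 0.5 times that of the reference library, and it had to reach 1 FPKM in any of the 4 libraries of that stress (in either library, where 2 later libraries or 2 stresses were compared). At 2 h the level was 29.2 FPKM (730 fragments), against 11.8 FPKM (183 fragments) at 0 h. The log2 fold change was 1.31 (95% interval 1.08 to 1.55). This call was shared by 11.9% of the 24418 genes tested, and 10.0% of them rose at least as much. At 6 h the level was 8.82 FPKM, below that of each library of 0 h. The log2 fold change of -0.41 (-0.71 to -0.12) against 0 h of salt was not called. Its size was smaller than the log2 range of the libraries of 0 h, 0.47. A call in either direction was made for 30.5% of genes there. At 12 h it was 2.49 FPKM (39 fragments), a log2 fold change of -2.24 (-2.78 to -1.73). Calls in this direction at 12 h made up 26.9% of the genes tested, and 8.48% fell at least as much. Against the cold and drought libraries of 0 h, whose levels were higher, the value of 2 h had log2 fold changes of 0.89 and 0.84, short of the 2-fold rule. With median ratio scaling, the calls at 12 h split into 5118 higher and 5226 lower, in place of 4058 higher and 6577 lower.

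The fall within salt was among the largest of all genes. The level of 6 h was 0.302 times that of 2 h (log2 fold change -1.73, 95% interval -1.95 to -1.50). Only 1.53% of the 22873 genes tested in this step fell at least as much, and 4.72% were called lower. From there to 12 h the level fell again, to 0.282 times that of 6 h (log2 fold change -1.82, 95% interval -2.36 to -1.33), where 11.3% of genes were called lower and 3.63% fell at least as much.

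In drought, *MtSWEET16* was below its starting level in each later library and had its lowest level at 6 h. At 2 h it was 9.73 FPKM (216 fragments), against 16.3 FPKM (301 fragments) at 0 h. The log2 fold change of -0.74 (95% interval -1.0002 to -0.48) did not pass the 2-fold rule, which 19.4% of genes passed in either direction. At 6 h it was 1.79 FPKM, with a log2 fold change of -3.18 (-3.74 to -2.67), or 0.11 times the level of 0 h. The same call was made for 24.6% of the 24038 genes tested, but only 2.68% fell at least as much. At 12 h it was 3.03 FPKM (44 fragments), with a log2 fold change of -2.42 (-2.91 to -1.96), where 25.2% of genes were called lower. The level of 12 h was 1.69 times that of 6 h (log2 fold change 0.76, 95% interval 0.08 to 1.45). This step was not called and rests on 44 and 34 fragments, and 9.68% of genes were called in it. The larger step was that of 6 h against 2 h, at -2.44 (-3.01 to -1.91), where 16.9% of genes were called lower. With median ratio scaling, the calls split into 4352 higher and 4612 lower at 6 h, in place of 3376 and 5904, and into 4164 higher and 4619 lower at 12 h, in place of 3086 and 6064.

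In cold, *MtSWEET16* stayed near its starting level at 2 h and was lower at 6 and 12 h. At 2 h the level was 17.4 FPKM (422 fragments), against 15.7 FPKM (266 fragments) at 0 h, and the interval of the log2 fold change of 0.15 held no change (-0.08 to 0.38), where 12.4% of genes were called in either direction. At 6 h it was 7.45 FPKM (219 fragments), with a log2 fold change of -1.08 (-1.34 to -0.81), just past the 2-fold rule, a call made for 12.5% of the 23266 genes tested. This call was lost at -0.98 with a pseudocount of 1, at -0.97 with scaling to TPM and at -0.91 with median ratio scaling. At 12 h it was 5.29 FPKM (75 fragments), with a log2 fold change of -1.57 (-1.96 to -1.20). There 14.8% of genes were called lower and 6.00% fell at least as much. The level of 6 h was 0.428 times that of 2 h (log2 fold change -1.22, 95% interval -1.47 to -0.99), a step in which 6.69% of genes were called lower. That of 12 h was 0.709 times that of 6 h (-0.50, -0.89 to -0.11), which was not called, and 9.74% of genes were called in this step. With median ratio scaling, the calls split into 2047 higher and 2208 lower at 6 h, in place of 1637 and 2904, and into 2159 higher and 2580 lower at 12 h, in place of 1620 and 3440.

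**Figure D2:**
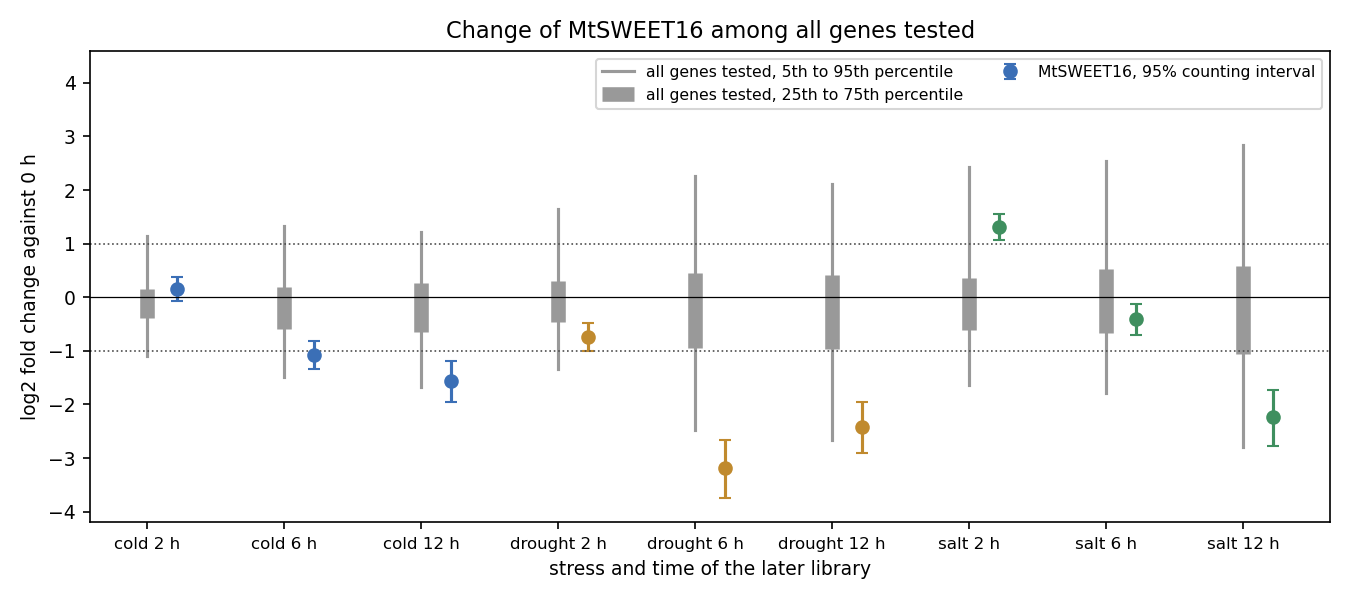
Log2 fold change against the 0 h library of the same stress (vertical axis) for each stress and time (horizontal axis). Coloured points (cold blue, drought brown, salt green) are *MtSWEET16* with its 95% counting interval, grey bars hold the middle of all genes tested (25th to 75th percentile) and grey lines the 5th to 95th percentile, with 0.1 added to each FPKM for the grey marks, and the dotted lines are the 2-fold thresholds. *MtSWEET16* lies at 1.31 at 2 h of salt and at -3.18 at 6 h of drought, where it is below the line of the 5th percentile.

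Over the 9 comparisons with 0 h, *MtSWEET16* was called in 6, once higher and 5 times lower. In 4 of the 9 it was called against each of the 3 libraries of 0 h, the rise at 2 h of salt not among them. The median log2 fold change of all genes tested was itself between -0.23 and -0.08, so that relative to this shift the values of *MtSWEET16* were 1.44 at 2 h of salt, -2.91 at 6 h of drought and -1.37, -2.16 and -1.97 at 12 h of cold, drought and salt (all on log2(FPKM + 0.1)). *ACTIN*, the reference gene of the study's qRT-PCR, had 264, 265, 267 and 255 FPKM at 0, 2, 6 and 12 h of cold. In drought it had 275, 253, 174 and 168 FPKM, and in salt 262, 228, 202 and 185 FPKM. It was thus lower in the late drought and salt libraries, in which *MtSWEET16* was also lower, and division by *ACTIN* changed no call of *MtSWEET16* against 0 h.

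At 2 and 6 h, the difference of *MtSWEET16* between stresses was largest between salt and drought, and at 12 h it was smallest between them. At 2 h it was 29.2 FPKM in salt, against 9.73 FPKM in drought, a log2 difference of 1.59 (95% interval 1.36 to 1.81). Of 23009 genes tested, 8.18% were called higher in salt and 4.07% were at least as much higher. At 6 h it was 8.82 FPKM in salt, against 1.79 FPKM in drought, a log2 difference of 2.30 (1.77 to 2.87). Only 1.76% of 22794 genes were at least as much higher in salt, and 11.5% were called so. At 12 h the levels of salt and drought, 2.49 and 3.03 FPKM, were not distinguishable at this depth (-0.28, 95% interval -0.94 to 0.37), and 22.8% of genes were called in either direction.

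Cold stood between the other stresses at the early times. At 2 h salt exceeded cold by 0.75 (0.57 to 0.92), and drought was below cold by a log2 of -0.84 (-1.08 to -0.60), and neither passed the 2-fold rule, which 20.4% and 18.3% of genes passed. At 6 h salt and cold (8.82 and 7.45 FPKM) differed by 0.24 (-0.04 to 0.52), where 27% of genes were called, whereas drought was lower than cold at -2.05 (-2.62 to -1.53), a call made for 19.4% of genes. At 12 h salt was lower than cold at -1.08 (-1.68 to -0.51), past the rule, as were 19.6% of genes, and drought was lower at -0.80 (-1.37 to -0.24), short of the rule that 37.7% of genes passed. The call of salt against cold at 12 h was lost at -0.85 with a pseudocount of 1 and at -0.62 with division by *ACTIN*.

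Since the stresses began from different levels, their changes were also set against each other. At 2 h, the log2 fold change in salt exceeded that in drought by 2.05 (95% interval 1.71 to 2.40, counting error only), and 4.16% of 24184 genes had at least as large a difference. It exceeded that in cold by 1.16 (0.84 to 1.49). At 6 h the difference of salt minus drought was 2.77 (2.18 to 3.35), which 2.47% of genes reached. At 12 h it was 0.18 (-0.49 to 0.86). The responses to salt and drought thus differed beyond counting error at 2 and 6 h, and at 12 h no difference was detectable at this depth.

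A change with time common to the 3 stresses was tested with limma on log2(FPKM + 0.1), with stress and time as factors and all 22132 genes with a mean of at least 1 FPKM. The stresses are different treatments and not replicates, so this fit treats the differences between them as error. At 12 h against 0 h, *MtSWEET16* changed by -2.04 ± 0.505 (SE) on the log2 scale, with an adjusted p of 0.0229 (Benjamini-Hochberg over all genes), and it was lower in 3 of 3 stresses. At this threshold 19.4% of genes were lower, and 3.84% had as low an estimate. At 6 h it changed by -1.53, lower in 3 of 3 stresses, with an adjusted p of 0.0732 in limma, and 8.06% of genes passed as lower. Without drought the common change at 6 h was -0.74. The fall in salt alone, -0.41, was smaller in size than the log2 range of the libraries of 0 h, 0.47. At 6 h, 997 genes were higher and 1784 lower in all, and 1458 and 1027 with median ratio scaling. At 2 h it changed by 0.24, higher in 2 of 3 stresses, with an adjusted p of 0.833 in limma, and 0.0813% of all genes passed in either direction. The rise counted here for cold, 0.15, was within counting error of no change. Without cold, drought or salt in turn, the change at 12 h was -2.29, -1.87 and -1.97, with adjusted p of 0.0534, 0.106 and 0.177 in limma. These fits had 3 residual degrees of freedom in place of 6. Without drought or salt they called 1 and 0 of all genes, so the calls lost there say little about *MtSWEET16* itself. Without cold, however, 2605 genes were called higher and 4734 lower, and *MtSWEET16* was not among them. Over all genes, 1654 were higher and 4290 lower at 12 h, and 2849 and 2470 with median ratio scaling.

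Among all genes, *MtSWEET16* was of moderate abundance and moved through the ranking. At 2 h of salt its FPKM had rank 3807, and 82.6% of the 21864 genes with at least 1 FPKM were lower. At 6 h of drought it had rank 18534, with 11.9% of the 21042 such genes lower. Its ranks at 0 h were 7060, 6790 and 9098 in the cold, drought and salt libraries. At 12 h they were 13396, 15966 and 17121. With 0.1 added to each FPKM, its log2 range over the 12 libraries was 3.95, against a median of 1.56 over the 22132 genes, and 9.02% of them had as wide a range.

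Among the 25 *MtSWEET* genes, *MtSWEET16* was one of 6 with at least 1 FPKM in all 12 libraries. The others were *MtSWEET2a* (1.64 to 6.28 FPKM) and *MtSWEET2b* (13.0 to 65.7) of clade I, whose *Arabidopsis* relative AtSWEET2 is a vacuolar glucose transporter, and *MtSWEET12* (37.0 to 87.5), *MtSWEET13* (29.8 to 197) and *MtSWEET14* (11.9 to 22.8) of clade III, whose members in other plants transport sucrose. By FPKM, which is per length, *MtSWEET16* was the third most abundant of the 25 at 2 h of salt and the seventh at 6 and 12 h of drought and at 12 h of salt. It made up 13.2% of the summed FPKM of the family at 2 h of salt, 5.72% to 8.26% at 0 h, and 0.57% at 6 h of drought. The labels describe 3′-tag libraries, for which division by length would affect this order, these shares and the ranks among all genes. The sum of the 25 genes was 221 FPKM at 2 h of salt, 315 FPKM at 6 h of drought and 197 to 206 FPKM at 0 h.

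**Figure D3:**
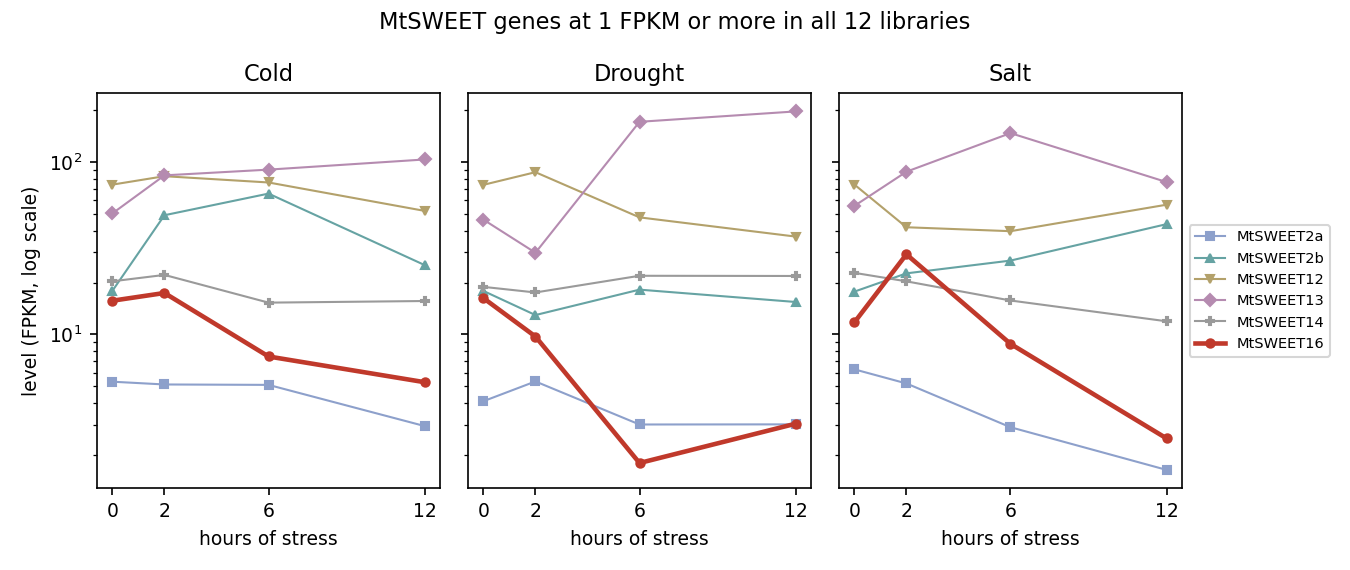
FPKM on a log scale (vertical axis) against hours of stress (horizontal axis) for the 6 *MtSWEET* genes with at least 1 FPKM in all 12 libraries. Each point is 1 library, and the thick line is *MtSWEET16*, which at 2 h of salt reaches 29.2 FPKM, above *MtSWEET2b* and *MtSWEET14*, and at 6 h of drought lies below *MtSWEET2a* at 1.79 FPKM.

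The other family members did not share 1 direction. At 12 h of drought, 5 of the other 24 were called higher and 3 lower, out of 12 that passed the filter, beside 12.8% and 25.2% of all genes. The median log2 fold change of the 12 was -0.0015, beside -0.23 for all genes tested. At 12 h of salt, 4 were higher and 3 lower of 10 that passed (16.6% and 26.9% of all genes), with a median of 0.04 beside -0.22. At 2 h of salt, 2 were higher and 1 lower of 10 that passed (11.9% and 14.2% of all genes), with a median of 0.50 beside -0.14. At 12 h of cold, 1 was higher and 3 were lower of 9 that passed (6.96% and 14.8% of all genes), with a median of -0.51 beside -0.18. With other scalings each of these counts moved by at most 1 gene. Of the 6 genes above, *MtSWEET2a* was called lower at 2 of the 9 time points and higher at none, *MtSWEET13* was higher at 4 and lower at none, *MtSWEET2b* was higher at 3 and lower at none, and *MtSWEET12* and *MtSWEET14* were not called. *MtSWEET16* was the only one of these 6 that was called in both directions, with each scaling. Outside these 6, and chosen after their values were seen, 4 other members were also called in both directions. *MtSWEET1a* and *MtSWEET15c* were each higher at 2 and lower at 4 time points, *MtSWEET7* was higher at 4 and lower at 1, and *MtSWEET3b* was higher at 1 and lower at 1. The lower calls of *MtSWEET7* and *MtSWEET3b*, at 2 h of drought, were made on levels under 1 FPKM. They went from 0.220 to 0.061 FPKM and from 0.106 to 0 FPKM. The higher call of *MtSWEET3b* reached only 1.01 FPKM, and *MtSWEET7* had 0 FPKM at 0 h of salt. Over the 12 libraries, which share their design and are not independent draws, the correlation of log2(FPKM + 0.1) with *MtSWEET16* was 0.75 for *MtSWEET2a*, 0.38 for *MtSWEET12*, 0.31 for *MtSWEET14*, -0.02 for *MtSWEET2b* and -0.54 for *MtSWEET13* (Pearson's r, n = 12).

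Outside the family, the gene with the most similar profile over the 12 libraries was MTR_7g032240 (Pearson's r of 0.96, Spearman's rho of 0.97, n = 12, as a description). The files and the reference table used here do not pair these identifiers with names. Its cold libraries had 34.4, 37.9, 28.6 and 27.2 FPKM at 0, 2, 6 and 12 h. Its drought libraries had 33.0, 32.6, 17.1 and 18.5 FPKM, and its salt libraries 35.1, 40.7, 29.97 and 15.1 FPKM. It followed nearly the same order with a smaller span, and passed the 2-fold rule at 12 h of salt only. The next, MTR_4g100590 (r of 0.94, rho of 0.90), had 43.7, 62.1, 11.2 and 2.09 FPKM at 0, 2, 6 and 12 h of salt and 38.0, 19.3, 2.84 and 1.88 FPKM of drought. In cold it had 38.1, 23.1, 15.2 and 10.9 FPKM, without the plateau of *MtSWEET16* at 2 h. It was called lower in 6 of the 9 comparisons and higher in none.

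**Figure D4:**
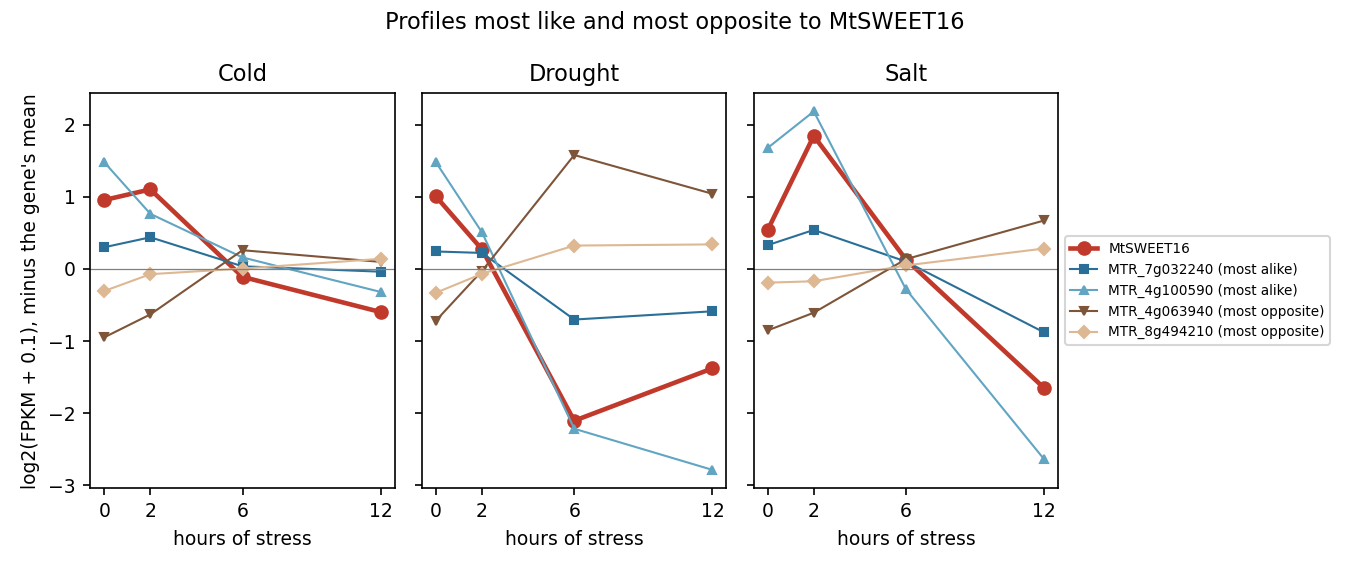
Log2(FPKM + 0.1) minus each gene's own mean over the 12 libraries (vertical axis) against hours of stress (horizontal axis). The thick line is *MtSWEET16*, the blue lines are the 2 genes with the highest correlation to it (0.96 and 0.94) and the brown lines the 2 with the lowest (-0.92 and -0.91), each point being 1 library.

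Of 22131 genes compared, 32 had an r of at least 0.9 and 803 (3.63%) of at least 0.8, and the median r was 0.19. Of the 10 most similar genes, 7 were called lower at 6 h of drought, 7 at 12 h of drought and 8 at 12 h of salt, beside 24.6%, 25.2% and 26.9% of all genes tested. At 12 h of cold 3 were called lower, beside 14.8%. At 6 h of cold 1 was called lower, beside 12.5%, and at 6 h of salt 1, beside 3918 of 24418 genes. None was called higher at 2 h of salt, a call made for 11.9% of all genes, where their log2 changes were -0.13 to 0.996 (median 0.20), although the salt library of 2 h was the highest of the 12 for 7 of them. When the 9 fold changes against 0 h were compared in place of the 12 levels, none of these 10 genes was among the 10 most similar. MTR_7g032240 then had an r of 0.90 and was in place 97, and MTR_4g100590 had an r of 0.91 and was in place 65. Of the 10 genes that led by fold changes, 1 was called higher at 2 h of salt, about the share of all genes. These lists were made from the same values that define the profile and carry no test.

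The rise at 2 h followed by a fall below the start at 12 h of salt was uncommon. It was met by 116 of 24418 genes (0.475%), *MtSWEET16* among them, or 4.00% of the 2899 genes that were higher at 2 h. Of the 116 genes, 41 were also lower at 12 h of drought, and 21 were lower at 12 h of both drought and cold, as *MtSWEET16* was. Within the family, *MtSWEET15c* was also among these 21, at levels of no more than 3.34 FPKM. It had 0.949, 2.29, 2.47 and 0.413 FPKM at 0, 2, 6 and 12 h of salt. Its Pearson's r with *MtSWEET16* over the 12 libraries was 0.75. The paper describes the rise and fall in salt for both genes. Conversely, 1028 of 25552 genes (4.02%) were lower at 12 h of all 3 stresses, and 21 of these (2.04%) were higher at 2 h of salt. Of all 25552 genes, 20.1% were called in at least 5 of the 9 comparisons, as *MtSWEET16* was in 6. No other gene had the same call as *MtSWEET16* in each of the 9 comparisons, but 992 of the 17325 genes with any call (5.73%) had a combination of calls that no other gene had. With median ratio scaling, 3 genes shared it, *MtSWEET16* included.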

How the data were processed

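RNA-seq was carried out on 12 seedling libraries. The authors deposited FPKM values, 1 file per library, which their methods describe as made with Tophat 2.1.0 on the Mt4.0v1 genome and StringTie 2.0. The submitters' processing notes also name HTSeq and DESeq. The labels describe 3′-tag libraries, for which division by length would affect levels between genes but not the folds of 1 gene. How reads of near-identical genes were counted is not given in the sources used here. Each library was assigned to its stress and time by its title.

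Fold changes were ratios of FPKM without a pseudocount, with the 2-fold rule of the study's methods and an FPKM of at least 1. No count model was applied to these values. Relative depth was taken as the commonest ratio of low values, and whole fragments (within 0.03) were returned for 37273 of 37274 genes above 0. They were the smallest whole numbers in the right proportion. Such numbers always exist for a gene above 0 in 1 library, so this share is no check, and fragments of genes in few libraries can be too low. Intervals are Clopper-Pearson (95%) for folds and Poisson for levels. Ranks of changes used log2(FPKM + 0.1). In limma, genes had a mean FPKM of at least 1, and a trend was fitted to the variance. Similarity was Pearson's r of log2(FPKM + 0.1). The named genes were *MtSWEET16*, the *MtSWEET* genes at 1 FPKM or more in all libraries, *ACTIN*, and the 2 most and 2 least similar genes, and 4 further *MtSWEET* genes were named after their values were seen. The members and lists were chosen with earlier results of these data known. As 0 identifiers were found in the RefSeq gene table, tissue markers and other sugar genes were not analysed here, no coordinates are given, and the labelled tissue was not checked. Steps were tested on simulated data. Alternatives were pseudocounts, scalings, filters, thresholds, 0 h controls and leaving out a stress. Python 3.11.15 (numpy 2.4.6, pandas 2.3.3, scipy 1.17.1, matplotlib 3.10.9) and R 4.3.3 (limma 3.58.1) were used.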

Additional observations from a re-analysis of the deposited data

Results flagged for a closer look

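At 2 h, *MtSWEET16* moved in opposite directions under different stresses. Its log2 fold change was 1.31 in salt and -0.74 in drought, a difference of 2.05. It was -0.74 in drought and 0.15 in cold, a difference of -0.89, where the value in cold was within counting error of no change. With 1 library for each condition, neither difference was tested against the spread between seedlings. The salt library of 0 h, against which the rise was taken, had the lowest *MtSWEET16* level of the 3 libraries at 0 h (11.8 FPKM, against 15.7 FPKM in cold and 16.3 FPKM in drought). Compared directly, salt was above drought at 2 h by a log2 of 1.59 and below it at 0 h by -0.47. These values make up the difference of 2.05. Why the salt library was low at 0 h was not tested.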

How the results depend on the processing

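Of 147 alternative values of the fold changes of *MtSWEET16*, 138 kept their direction and their side of the 2-fold threshold, 9 kept the direction but lost the call, and none changed sign. The rise at 2 h of salt lost it with the cold or drought library of 0 h as control (0.89 and 0.84). The fall at 6 h of cold lost it with a pseudocount of 1 (-0.98), TPM scaling (-0.97), median ratio scaling (-0.91), the mean of the 3 libraries at 0 h (-0.97) or the salt library of 0 h as control (-0.66). Salt against cold at 12 h lost it with a pseudocount of 1 (-0.85) and division by *ACTIN* (-0.62). With a threshold of 3, 3 of the 9 comparisons with 0 h were called in place of 6. Against each of the 3 libraries at 0 h, 4 were called, and 5 with their mean, TPM scaling, median ratio scaling or a pseudocount of 1. Without each stress in turn, the common change at 12 h was -2.29 to -1.87 on the log2 scale and no longer passed the threshold in limma. These fits had 3 residual degrees of freedom. Without drought or salt they called 1 and 0 of all genes, but without cold they called 2605 higher and 4734 lower. The common change at 6 h was -2.09 to -0.74, the last without drought. The common change at 2 h, 0.24 and not significant, was reversed to -0.29 without salt, the lowest of a range of -0.29 to 0.73. Its percentile among all genes moved beyond its counting interval at 2 h of salt, to 85.9 with no filter, 92.6 with an FPKM of at least 5 and 93.9 with a pseudocount of 1, in place of 90.0, and with a pseudocount of 1 to 2.93 at 12 h of cold and 3.54 at 12 h of drought. Calls over all genes and the 9 comparisons numbered 60004, and 35320 where 5 FPKM were required, 99487 at a threshold of 1.5 and 32323 at a threshold of 3. The other 24 *MtSWEET* genes had 43 calls, and 66 with no filter. Genes with the same 9 calls numbered 3 with median ratio scaling. Of the 10 most similar genes, 2 were kept with Spearman's rho, MTR_7g032240 but not MTR_4g100590 among them, and 0 with fold changes. The causes were not tested. The lists of sugar and stress genes by product name were not run, since no identifier matched. Depth limits the lowest levels, which rest on 34 fragments at 6 h of drought and on 39 to 75 at 12 h. The labels carry no replicate numbers, so the only block was stress, a term of the limma fit, and without it the change at 12 h was -2.04 with an adjusted p of 0.0446.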

Other observations

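The 2 genes least similar to *MtSWEET16* ran opposite to it at 6 and 12 h of each stress, but not at 2 h of salt or of cold. At 2 h of cold their log2 fold changes were 0.32 and 0.23, beside 0.15 for *MtSWEET16*, which was within counting error of no change. The lowest correlation over the 12 libraries, -0.92 (Pearson's r, as a description), was that of MTR_4g063940, an identifier for which the files give no name. Its cold libraries had 4.21, 5.27, 9.85 and 8.79 FPKM at 0, 2, 6 and 12 h. Its drought libraries had 4.96, 8.06, 24.7 and 17.0 FPKM, and its salt libraries 4.50, 5.36, 9.03 and 13.1 FPKM. It was called higher in 6 of the 9 comparisons with 0 h and lower in none, and its highest level was at 6 h of drought, where *MtSWEET16* was lowest. At 2 h of salt, the time of the highest *MtSWEET16* level, it stayed close to its level of 0 h. The second, MTR_8g494210 (r of -0.91), spanned only 18.1 to 28.8 FPKM and was called in no comparison. An r of -0.8 or lower was found for 100 of 22131 genes, against 803 genes with an r of at least 0.8.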
